A study of Mus musculus with 20 samples.

Results

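Lung metastases of mouse sarcomas held less RNA of 8 genes outside the matrix than their matched primary tumours, and these 8 genes are described across 20 RNA sequencing libraries: Chn1, Riox2, Adgra2, Atp10a, Fez1, Crabp1, Masp1 and Cavin2. They are 8 of 51826 genes in the deposited count table and 8 of the 18452 that were counted deeply enough to test. The libraries came from 14 lung metastases and from the 6 primary tumours they were matched with, all total RNA of mouse tumour tissue on a mixed genetic background. No treatment, age, sex, tumour site or targeted allele is given in the labels used here. Each primary tumour forms a set with the metastases matched to it, with 4 metastases in set 1 and in set 2, 2 in set 3 and in set 6, and 1 in set 4 and in set 5. Libraries are named by set and number, so that 2-3 is the third metastasis of set 2, and 5-x bears no number. Nothing says that metastases of a set came from separate animals, so the spread between them may be partly shared.

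The genes were chosen by their measured difference between metastases and primary tumours, among 542 named genes that passed the test, had a mean log2 CPM (CPM are counts scaled to a common library total) of at least 2 and were lower in all 6 sets. Chn1, Riox2, Adgra2 and Atp10a stood at ranks 2, 3, 5 and 8 by p-value. Fez1, Crabp1, Masp1 and Cavin2 stood at ranks 1, 3, 6 and 7 by the size of the fall. The next gene by p-value, Hirip3 at rank 9, had a log2 difference of -1.41, against -2.49 for Atp10a just inside. By size, Cavin2 at rank 7 had -2.80, and the next genes were Oasl1 at rank 8 and Isg15 at rank 9, both with -2.77 and neither a member. The ranks between were held by genes that are not members. By p-value these were Col1a2 (rank 1), Pycr1 (4), B2m (6) and Col5a2 (7). By size they were Col11a1 (rank 2), Esm1 (4) and Cxcl10 (5). Thus the 8 are not simply the top genes of either order. Since these values chose the genes, the differences between metastases and primary tumours are given as a description and with no p-value. All 8 are among the genes called lower, which make up 6.44% of those tested, while 7.34% were called higher (edgeR quasi-likelihood test, adjusted p under 0.05). Nothing is read from that count, because the same contrast selected them.

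The 8 proteins have unrelated work. Chn1 encodes chimaerin, which switches off the small GTPase Rac downstream of ephrin receptors in growing axons, and Fez1 encodes an adaptor that ties cargo to kinesin-1 on microtubules. Adgra2 (also called Gpr124) is an adhesion receptor that works with Reck to let endothelial cells of the brain answer the ligands Wnt7a and Wnt7b, and Masp1 is a protease that starts the lectin pathway of complement. Atp10a flips phospholipids across the plasma membrane, Cavin2 is a coat protein of caveolae, the small pits of the membrane of endothelial cells, adipocytes and muscle, Crabp1 holds retinoic acid in the cytoplasm, and Riox2 is a Jumonji-family hydroxylase that acts on a ribosomal protein.

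On the mm10 build all 8 are annotated as protein coding. Chn1 (ENSMUSG00000056486.17) lies at chr2:73610660-73775346 on the minus strand and Masp1 (ENSMUSG00000022887.8) at chr16:23449417-23520815 on the minus strand. The other 6 are on the plus strand: Riox2 (ENSMUSG00000022724.15) at chr16:59471775-59492461, Adgra2 (ENSMUSG00000031486.15) at chr8:27085583-27123436, Atp10a (ENSMUSG00000025324.8) at chr7:58656166-58829420, Fez1 (ENSMUSG00000032118.16) at chr9:36821864-36878924, Crabp1 (ENSMUSG00000032291.8) at chr9:54764748-54773110 and Cavin2 (ENSMUSG00000045954.7) at chr1:51289126-51302960. Exons of Crybg3 overlap those of Riox2 on the opposite strand, and Crybg3 held 147.3% as many counts as Riox2 over all libraries. Its own difference was -1.04 on the log2 scale (edgeR adjusted p = 0.0545). Because the strand setting of the counting is not given in the sources used here, reads of Riox2 and Crybg3 cannot be told apart where they overlap. The same holds for Adgra2 and Brf2, which held 23.5% as many counts and had a difference of -0.06 (adjusted p = 0.91), and for Chn1 and its antisense gene Chn1os3, at 6.18%.

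The start regions of the genes differed in base composition, and 3 are shown because they hold the most GC boxes or none. RefSeq windows of 250 bases before to 50 bases after a start, on GRCm38.p6, matched 6 of the 8 genes. The GC box GGGCGG was searched on both strands and is written in capitals, as GGGCGG or as its reverse complement CCGCCC. Riox2 at chr16:59471525-59471824 (plus strand) and Crabp1 at chr9:54764498-54764797 (plus strand) hold 5 matches each, and Cavin2 at chr1:51288876-51289175 (plus strand) holds 0.
Riox2: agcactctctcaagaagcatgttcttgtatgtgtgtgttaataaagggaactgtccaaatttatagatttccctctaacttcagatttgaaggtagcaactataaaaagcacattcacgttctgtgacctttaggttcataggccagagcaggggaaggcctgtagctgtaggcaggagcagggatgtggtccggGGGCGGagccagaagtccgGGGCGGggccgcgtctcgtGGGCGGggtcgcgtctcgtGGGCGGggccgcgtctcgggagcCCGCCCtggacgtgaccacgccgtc
Crabp1: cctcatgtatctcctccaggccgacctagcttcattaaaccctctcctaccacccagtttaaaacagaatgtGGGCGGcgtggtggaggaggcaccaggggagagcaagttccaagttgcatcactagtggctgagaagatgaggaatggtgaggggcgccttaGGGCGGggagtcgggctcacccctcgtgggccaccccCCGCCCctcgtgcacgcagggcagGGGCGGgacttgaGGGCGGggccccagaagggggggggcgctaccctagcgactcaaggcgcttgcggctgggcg
Cavin2: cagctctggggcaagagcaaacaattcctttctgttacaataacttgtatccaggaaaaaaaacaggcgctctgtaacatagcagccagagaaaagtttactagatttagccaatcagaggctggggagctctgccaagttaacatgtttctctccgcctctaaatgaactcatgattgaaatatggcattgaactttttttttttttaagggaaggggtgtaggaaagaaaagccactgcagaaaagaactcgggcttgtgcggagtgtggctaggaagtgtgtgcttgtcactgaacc
Of all 32851 mouse windows, 35.7% hold at least 1 GC box and 2.71% hold 5 or more. Atp10a has 3 matches in its window, Chn1 has 2 and 0 in its 2 windows, and Fez1 has 0, 0 and 1 in its 3 windows. GC content was 57.0% for the Riox2 window, 65.0% for Crabp1, 43.3% for Cavin2 and 73.3% for the first window of Chn1, with a median of 52.7% over all windows. The matches are letters in a window and say nothing of binding.

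A few libraries stood apart and bear on the values below. Primary tumours 4 and 6 held little RNA of muscle, leukocytes or vessels, as set out further on. Metastases 2-3 and 2-4 held hepatocyte transcripts, with summed hepatocyte markers of 13700 and 1381 CPM, against 0.432 to 13.4 CPM in the other 12 metastases. Each main value is therefore also given without them, an alternative chosen after seeing the data. Lung epithelial markers summed to between 673.7 and 15610 CPM in the metastases, against 5.51 to 514.6 CPM in the primary tumours, and 15 of 18 of those markers rose. Skeletal muscle markers summed to between 54.3 and 12450 CPM in the metastases, against 7.51 to 31560 CPM in the primary tumours, and 13 of 22 fell. Fibroblast markers summed to between 3708 and 11250 CPM in the metastases, against 7147 to 19220 CPM in the primary tumours, with 3 of 13 lower. The part of these lists in the differences below was not tested. In whole tissue, fewer cells of a type and less RNA per cell cannot be told apart.

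Chn1 and Riox2 gave the tightest differences of the 8, with standard errors of 0.22 and 0.15 on the log2 scale. Both were chosen by p-value, which favours a small standard error, while Fez1, Crabp1, Masp1 and Cavin2 were chosen by size. Nothing is therefore read from the order of these errors, or from the spread of the set differences below. Chn1 ran from 4.61 to 12.04 CPM in the metastases with a median of 8.35, against 20.2 to 53.8 CPM with a median of 39.6 in the primary tumours. Every metastasis was below every primary tumour. The same contrast chose the genes, so nothing is read from such separation, here or for Riox2 and Atp10a below. The share of all genes without overlap was not counted. Its log2 difference was -2.25 ± 0.22 (SE), and the mean fell to 8.25 ± 2.76 CPM in metastases (SD, n = 14), against 38.5 ± 12.7 CPM in primary tumours (SD, n = 6). Across the sets the log2 difference lay between -1.36 in set 4 and -2.99 in set 1.

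Riox2, the hydroxylase, had the smallest SD of log2 CPM of the 8 genes in both groups, at 0.33 in the metastases and 0.31 in the primary tumours. It ran from 12.03 to 25.3 CPM in the metastases with a median of 16.1, against 34.03 to 57.8 CPM with a median of 44.4 in the primary tumours. The groups did not overlap. The log2 difference was -1.41 ± 0.15, and in single sets it lay between -1.05 in set 5 and -1.75 in set 3. The difference was -2.28 for Chn1 and -1.36 for Riox2 without metastases 2-3 and 2-4.

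**Figure D1:**
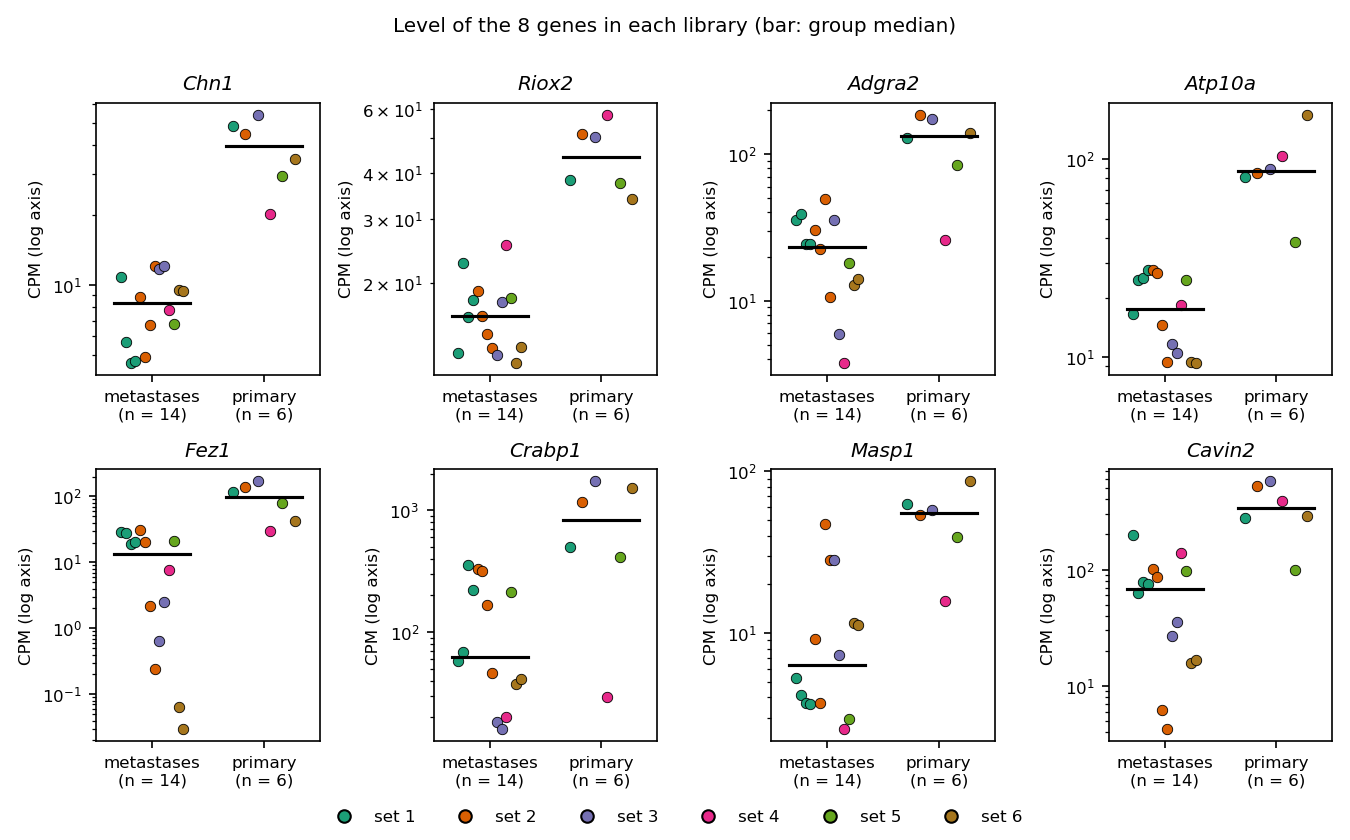
Level of each gene in every library, in CPM on a log axis, with the 14 metastases left and the 6 primary tumours right in each panel, points coloured by set and bars at the group medians. Chn1, Riox2 and Atp10a show no overlap between the groups, which the choice of the genes favoured, while 11 of 14 Crabp1 metastases lie above the lowest primary tumour.

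At the cell surface and membrane, Adgra2 ran from 3.77 to 49.8 CPM in the metastases with a median of 23.3, against 25.8 to 184.7 CPM with a median of 133.8 in the primary tumours. In Adgra2, 5 metastases were above the lowest primary tumour, which was primary 4, and none was above the lowest of the other 5, at 84.0 CPM in primary 5. The log2 difference was -2.72 ± 0.32. In single sets it lay between -2.08 in set 1 and -3.58 in set 3, and it was -2.74 without metastases 2-3 and 2-4.

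Atp10a, the phospholipid flippase, ran from 9.38 to 27.6 CPM in the metastases with a median of 17.4, against 38.1 to 166.8 CPM with a median of 87.5 in the primary tumours. No metastasis reached a primary tumour's level. The log2 difference was -2.49 ± 0.32, but it varied between -0.64 in set 5 and -4.14 in set 6. It was -2.42 without metastases 2-3 and 2-4.

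Cavin2 ran from 4.28 to 198.0 CPM in the metastases with a median of 68.7, against 99.5 to 570.1 CPM with a median of 336.9 in the primary tumours. Metastases 1-1, 2-1 and 4-1 were above primary 5, the lowest primary tumour. The log2 difference was -2.80 ± 0.63, and in set 5 it was -0.03, so that the metastasis of that set, at 97.5 CPM, and primary 5, at 99.5 CPM, were nearly equal. Metastases 2-3 and 2-4 were the lowest, at 6.29 and 4.28 CPM, and without them the difference was -2.57.

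Fez1, the kinesin-1 adaptor, had the largest SD of log2 CPM of the 8 genes among metastases, at 3.07. It ran from 0.0297 to 31.1 CPM in the metastases with a median of 13.2, against 30.02 to 168.6 CPM with a median of 98.7 in the primary tumours. Metastasis 2-1 alone was above the lowest primary tumour, and it was below all 5 primary tumours other than primary 4. The fitted log2 difference was -4.49 ± 1.00. Metastases 6-1 and 6-2 held 2 counts and 1 count of Fez1, against 1255 counts in primary 6, a ratio of 0.00109 in CPM with an exact 95% interval of 0.000225 to 0.0032 that covers counting error only. By contrast the difference was -1.93 in set 5, -1.96 in set 4 and -2.32 in set 1, and over all sets it was -4.32 without metastases 2-3 and 2-4.

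Crabp1 ran from 16.0 to 358.8 CPM in the metastases with a median of 62.8, against 29.5 to 1725 CPM with a median of 840.1 in the primary tumours. For this gene 11 metastases were above primary 4, but none was above the next lowest primary tumour, at 415.2 CPM. The log2 difference was -3.32 ± 0.77, with -0.55 in set 4, -0.95 in set 5, -5.28 in set 6 and -6.65 in set 3. Leaving out metastases 2-3 and 2-4 gave -3.23. Per kilobase of exon, it was the most abundant of the 8 genes in both groups, with a median of 78.3 CPM per kilobase in the metastases, against 1048 CPM per kilobase in the primary tumours.

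Masp1, the complement protease, ran from 2.55 to 47.3 CPM in the metastases with a median of 6.31, against 15.7 to 86.5 CPM with a median of 55.5 in the primary tumours. Metastases 2-3, 2-4 and 3-1 were above primary 4, the lowest primary tumour, and metastasis 2-3 was also above primary 5, at 39.1 CPM. The log2 difference was -2.81 ± 0.46, and -3.08 without metastases 2-3 and 2-4. Skeletal muscle markers summed to 12450, 1618 and 7655 CPM in metastases 2-3, 2-4 and 3-1, and hepatocyte markers to 13700, 1381 and 8.79 CPM, and their part in the Masp1 level was not tested. Primary 2 held 1.13 times as much Masp1 as metastasis 2-3, and 82.4 times as much Cavin2.

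**Figure D2:**
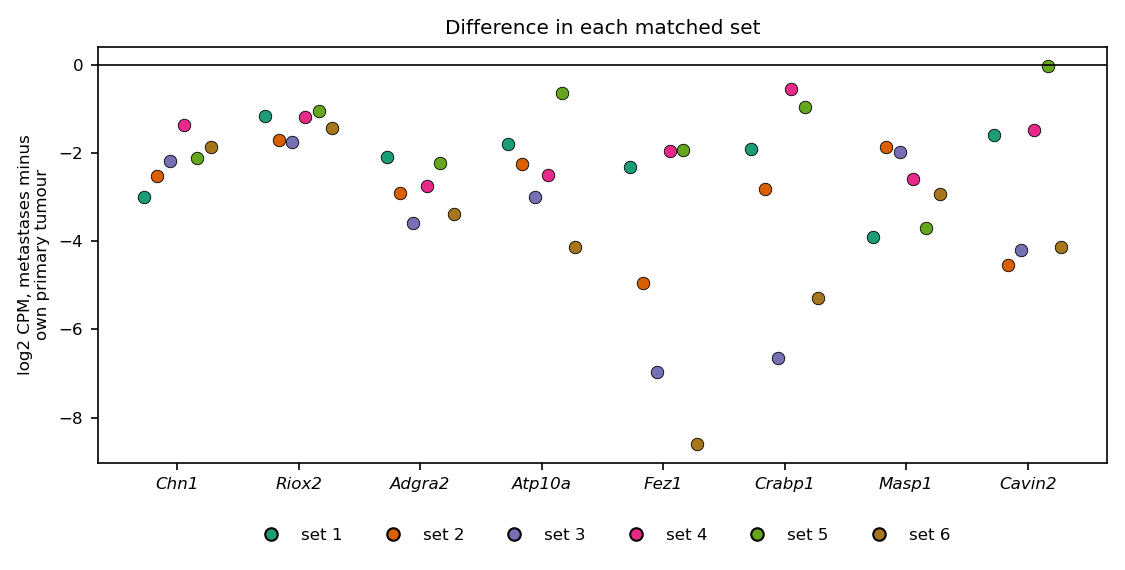
Difference in log2 CPM between the mean of a set's metastases and its primary tumour for each gene, with 1 point per set. All 48 points lie below 0, which the choice of the genes required, and they lie closest together for Riox2 (-1.05 to -1.75) and farthest apart for Fez1 (-1.93 to -8.59).

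Compared per kilobase, the order of the medians in the metastases was Crabp1 at 78.3, Cavin2 at 22.5, Adgra2 at 4.03, Fez1 at 3.23, Atp10a at 3.12, Riox2 at 3.05, Chn1 at 1.31 and Masp1 at 0.642 CPM per kilobase. The order in the primary tumours was Crabp1 at 1048, Cavin2 at 110.3, Fez1 at 24.1, Adgra2 at 23.2, Atp10a at 15.7, Riox2 at 8.39, Chn1 at 6.22 and Masp1 at 5.65 CPM per kilobase. Within libraries, Riox2 was above Chn1 in 14 of 14 metastases and Cavin2 was above Fez1 in 6 of 6 primary tumours. Adgra2 against Fez1, Fez1 against Atp10a and Atp10a against Riox2 were each higher in 7 of 14 metastases, so their order there did not hold beyond the spread between libraries. The other pairs of neighbours kept their order in 11 to 13 of the 14 metastases and in 4 or 5 of the 6 primary tumours.

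Primary tumours 4 and 6 show how each gene stood where host transcripts were scarce. Muscle markers summed to 78.2 CPM in primary 4 and 7.51 CPM in primary 6, against 12500 to 31560 CPM in the other 4 primary tumours, with all 22 markers below the lowest of those 4. Macrophage markers summed to 31.4 and 141.8 CPM, against 3689 to 6057 CPM, with 14 and 12 of 14 below. Endothelial markers summed to 90.6 and 26.6 CPM, against 492.8 to 1104 CPM, with 17 and 18 of 18 below. Flt1 held 53.6 CPM of the sum in primary 4, and Erg was at 0 counts in both tumours. T and natural killer cell markers summed to 1.02 and 5.12 CPM, against 39.1 to 209.9 CPM, and 11 and 10 of the 14 were at 0 counts. Fibroblast markers were less reduced in sum, at 7147 and 10440 CPM, against 9219 to 19220 CPM. Yet 12 and 9 of the 13 were below the lowest of the other 4 primary tumours. Col1a2, Col3a1 and Cd34 held 1901, 3163 and 1737 CPM of the sum in primary 4. In primary 6 they held 5188, 2598 and 901.6 CPM. The fibroblast list includes genes that sarcoma cells can express. Adipocyte markers summed to 4.01 and 80.95 CPM, against 70.6 to 255.8 CPM. The lung capillary endothelial list summed to 1875 CPM in primary 4, of which Kitl alone held 1554 CPM, and to 253.2 CPM in primary 6, against 334.9 to 781.9 CPM.

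Atp10a and Cavin2 were not low in these 2 tumours. Atp10a had 103.5 CPM in primary 4 and 166.8 CPM in primary 6, the second and the first of the 6 primary tumours, while Cavin2 had 387.1 and 286.7 CPM, the third and the fourth. Riox2 had 57.8 CPM in primary 4, the highest of the 6, and 34.03 CPM in primary 6, the lowest. In their own metastases, Atp10a was at 17.8% of the level of primary 4 and 5.67% of that of primary 6, Cavin2 at 35.6% and 5.68%, and Riox2 at 43.9% and 37.3%. In CPM, Atp10a was thus above the highest of the other 4 primary tumours, 89.5 CPM, in both tumours, and Cavin2 was within their range in both. The scaling factor (TMM) of primary 4 was 0.712, against 0.932 to 1.10 in the other libraries, which raises its CPM. By library totals alone, primaries 1, 2 and 3 would also lie above primary 4 in Atp10a, and primaries 2 and 3 in Riox2. Cavin2 in primary 4 would then be above primary 5 only. The places of primary 4 given above therefore rest on the scaling. Atp10a had 1934 counts of 26287783 in primary 4 and 3026 of 36824370 in primary 1. It had 2824 of 31643606 in primary 2 and 3289 of 34979101 in primary 3. Riox2 had 1080 counts in primary 4, 1695 in primary 2 and 1850 in primary 3. Cavin2 had 7234 counts in primary 4, 10422 in primary 1 and 8517 of 30390534 in primary 6.

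Crabp1, Adgra2 and Masp1 set primary 4 and primary 6 apart from each other. Crabp1 had 29.5 CPM in primary 4, the lowest of 6, but 1532 CPM in primary 6, the second highest. Adgra2 had 25.8 CPM in primary 4 and 139.4 CPM in primary 6, against 84.0 to 184.7 CPM in the other 4. Masp1 had 15.7 CPM in primary 4 and 86.5 CPM in primary 6, against 39.1 to 62.8 CPM in the other 4. All 3 were therefore low in only 1 of the 2 tumours that were poor in host markers.

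Fez1 was low in both, and Chn1 in primary 4. Fez1 had 30.02 and 42.2 CPM in primaries 4 and 6, the lowest and second lowest of the 6, against 79.2 to 168.6 CPM in the other 4. Chn1 had 20.2 and 34.7 CPM, against 29.6 to 53.8 CPM, so that primary 6 lay within the range of the others. The smallest of these 16 measurements rested on 293 counts, for Masp1 in primary 4. Leaving out sets 4 and 6 gave log2 differences between -1.45 for Riox2 and -3.77 for Fez1, and none of the 8 changed sign. Whether tumour or host cells carried the RNA of any of the 8 genes was not tested.

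**Figure D3:**
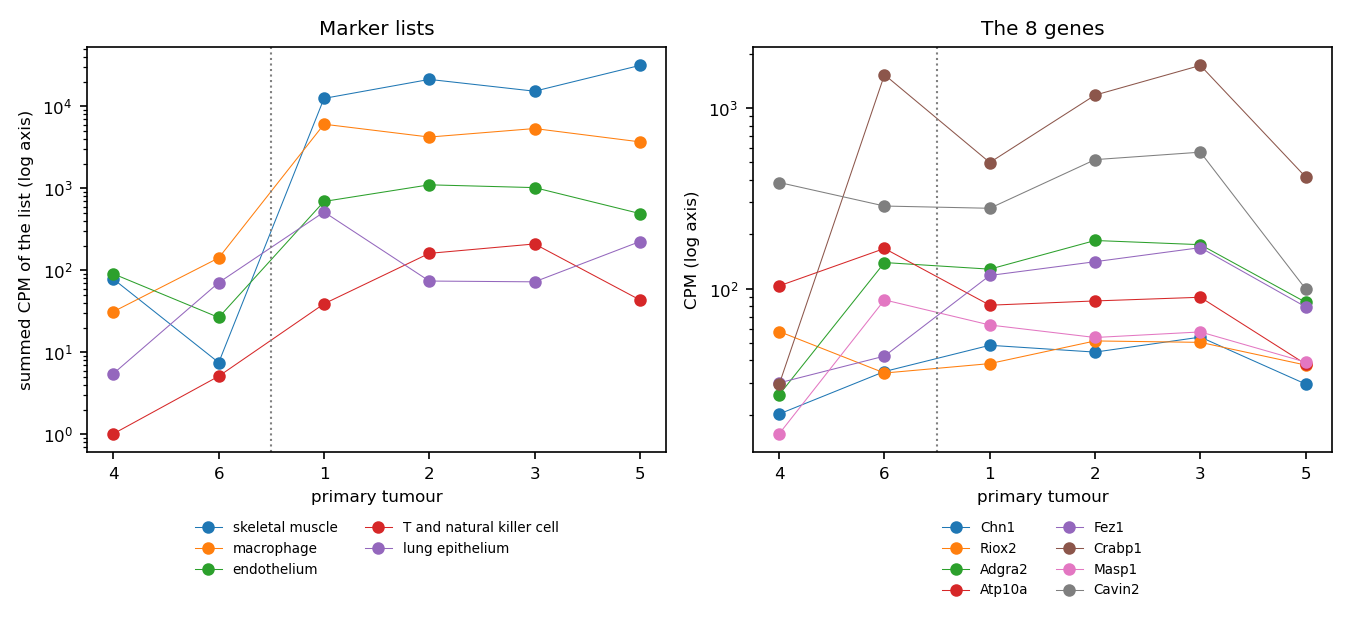
Primary tumours 4 and 6 left of the dotted line and the other 4 right of it, with summed CPM of 5 marker lists in the left panel and CPM of the 8 genes in the right panel, both on log axes (lines only join points of a list or gene). Muscle, macrophage, endothelial and T cell lists are lower in primaries 4 and 6, whereas Atp10a, Cavin2 and Riox2 stay within or above the range of the other tumours in primary 4.

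Among the 12 metastases of sets 1, 2, 3 and 6 the sets themselves were compared, a contrast by which the genes were not ranked. It is not wholly independent of the choice, because the p-values that ranked genes rest in part on the same spread within sets. At an adjusted p under 0.05 (edgeR quasi-likelihood test), 0 of the 8 genes were called between sets, with 0.321% of all 19919 genes called. Of the 8, 4 had an unadjusted p under 0.05, beside 29.5% of all genes. In simulated counts with 1 set changed in 50 genes at each fold, this test recovered 0% of 2-fold, 10% of 4-fold and 38% of 8-fold changes. A gene not called is therefore not shown to be equal between sets. DESeq2's likelihood ratio test called 3 of the 8 and 22.7% of all genes it tested, and limma voom called 0 of the 8 and 2.57% of all genes. Fez1 had the widest spread of set means, at 4.57 ± 0.31 log2 CPM in set 1, 2.19 ± 3.09 in set 2, 0.43 ± 1.30 in set 3 and -3.19 ± 0.32 in set 6 (SD), for an adjusted p of 0.0764. Its 18 alternatives gave adjusted p between 0.00014 and 0.231, with 5 under 0.05.

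Crabp1 set means ran from 4.10 log2 CPM in set 3 to 7.40 in set 2 (adjusted p = 0.0886 in edgeR, 0.00299 to 0.22 over the alternatives). Riox2 and Chn1 had set means within 0.42 and 0.97 log2 units of each other, against a median of 1.17 over all genes tested. Both were chosen by p-value, which may favour such closeness, so nothing is read from it. Without metastases 2-3 and 2-4, 4 of the 8 differed between sets in edgeR: Fez1 (adjusted p = 0.000806), Atp10a (0.0109), Cavin2 (0.0161) and Crabp1 (0.0204). These calls therefore depend on which libraries of set 2 are counted, and 3780 genes, 19.4% of those tested, were called in that fit.

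The 8 genes did not move as one among the metastases. Of their 28 pairs, 16 had a Pearson r of log2 CPM above 0 over the 14 metastases and 12 below 0. Fez1 with Atp10a gave 0.91, Fez1 with Cavin2 gave 0.80, and Cavin2 with Masp1 gave -0.85. The points share the libraries, their depth and 6 sets, and no p-value is given. Without metastases 2-3 and 2-4 the same pairs gave 0.90, 0.90 and -0.70. Over the 6 primary tumours the order was different: Crabp1 gave 0.97 with Adgra2 and 0.93 with Masp1, and Fez1 with Atp10a gave -0.36. Primary 4 was the lowest in Crabp1, Adgra2 and Masp1, at 4.89, 4.69 and 3.98 log2 CPM. The next lowest, primary 5, had 8.70, 6.39 and 5.29 log2 CPM. The 2 high values may thus rest largely on 1 tumour, and r without it was not computed.

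**Figure D4:**
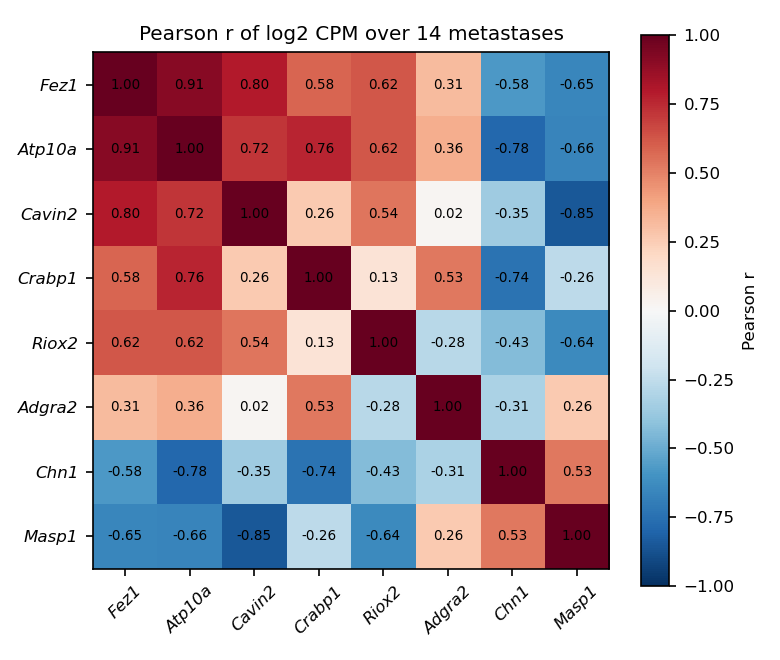
Pearson r of log2 CPM between each pair of the 8 genes over the 14 metastases, with the value in each cell. Fez1 and Atp10a stand highest at 0.91, and Masp1 is below 0 with every gene except Adgra2 and Chn1.

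Among marker lists, mean log2 CPM of skeletal muscle markers had r = 0.87 with Masp1 over the 14 metastases (0.81 without metastases 2-3 and 2-4). Hepatocyte markers had r = 0.66 with Masp1, and -0.18 without those 2 libraries. Fibroblast markers had r = 0.93 with Atp10a and 0.87 with Fez1, macrophage markers 0.92 with Atp10a, and smooth muscle and pericyte markers 0.81 with Adgra2. Cavin2 had r = 0.85 with lung epithelial markers and 0.88 with lung capillary endothelial markers, or 0.63 and 0.74 without the 2 libraries. Over the 6 primary tumours, Atp10a instead had -0.45 with fibroblast and -0.61 with macrophage markers. There Cavin2 had -0.26 with lung epithelial and 0.05 with lung capillary endothelial markers, and Masp1 0.19 with muscle markers. Fez1 had 0.97 with fibroblast markers, but also 0.98 with adipocyte, 0.96 with endothelial and 0.94 with macrophage markers. Its lowest value was 0.46, with lung epithelial markers. Adgra2 had 0.66 with smooth muscle and pericyte markers. The lists named are not all that were compared. What these lists contribute to the levels of the 8 genes was not tested. Adding the lung epithelial list's mean as a covariate moved the log2 differences of Fez1 to -8.83, Cavin2 to -6.52 and Masp1 to -1.39, while the other 5 stayed within 1.5 times the values given above. That mean ran from 0.73 to 8.04 log2 CPM in the metastases, against -2.54 to 1.84 in the primary tumours. Only metastases 2-3 (1.56) and 2-4 (0.73) lay within the range of the primary tumours. The list and the contrast can therefore hardly be separated in this fit, here and wherever it is used below.

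The genes most alike to each of the 8 were found by Pearson r over the 14 metastases among 10883 genes. These are the highest of many values over libraries that share sets, and no p-value is given for r. Without metastases 2-3 and 2-4 the r of the genes named here lay between 0.878 and 0.995. Over the 6 primary tumours it ran from -0.64 for Ank2 with Atp10a to 0.99 for Psmb4 with Crabp1. Atp10a was most alike to Csf1 (r = 0.99), Loxl2 (0.98) and Ank2 (0.97), and Csf1 had a log2 difference of -2.28 (edgeR adjusted p = 0.027). Fez1 was most alike to Rhoa (0.97), Gpr176 (0.96) and Lox (0.96), and Gpr176 had -1.98 (adjusted p = 0.0212). Adgra2 was most alike to Tacc2 (0.97), Ckb (0.96) and Sema6b (0.95), and Tacc2 had -0.96 (adjusted p = 0.0273). Crabp1 was most alike to Ergic1 (0.98), Impdh2 (0.95) and Psmb4 (0.94), and none of the 3 passed the test. Masp1 was most alike to Itgb1bp2 (0.96) and to the myosin heavy chains Myh3 (0.95) and Myh8 (0.95). Cavin2 was most alike to Elmo1, Galc and Ikzf1 (0.98 each), Chn1 to Stox2 (0.91), Lysmd2 (0.89) and Irx2 (0.88), and Riox2 to Ovca2 (0.94), Eif2ak2 (0.94) and Zfp719 (0.94).

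Among the closest relatives of the 8 genes, Crabp2 was called, in the opposite direction to Crabp1. Of 11 tested paralogues 1 rose and 0 fell, with a median log2 difference of -0.28, beside 0 for all genes. The counts were again 1 and 0 without metastases 2-3 and 2-4, a fit in which 7.59% of all genes were called higher and 6.49% lower. Chn2 had -0.03, Riox1 -0.33, Adgra1 0.67, Adgra3 0.13, Atp10d -0.28, Fez2 -0.49, Masp2 -0.36, Cavin1 -0.30, Cavin3 -0.18 and Cavin4 -1.14, and none of these passed the test. The paralogue that rose was Crabp2, the second retinoic acid binding protein of the cytoplasm, which carries retinoic acid to nuclear receptors. It averaged 295.7 ± 165 CPM in metastases (SD, n = 14) and 71.1 ± 74.6 CPM in primary tumours (SD, n = 6), a log2 difference of 1.96 ± 0.49 that was above 0 in 6 of 6 sets (edgeR adjusted p = 0.0153). Over 17 alternatives the adjusted p lay between 0.000174 and 0.205, and the call was lost in 4. With the lung epithelial list as a covariate the difference was 1.64 (adjusted p = 0.205). Per kilobase, Crabp1 made up 17.9% to 57.1% of Crabp1 plus Crabp2 in the metastases with a median of 30.3%, against 43.5% to 99.8% with a median of 96.2% in the primary tumours. Crabp2 was the more abundant of the pair in 11 of 14 metastases, against 1 of 6 primary tumours, primary 4.

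**Figure D5:**
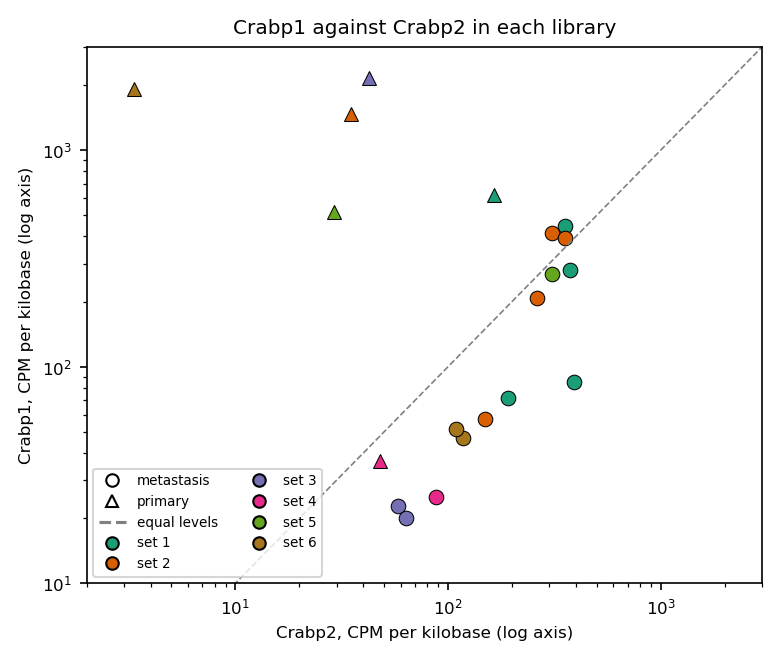
Crabp1 against Crabp2 in each library, both in CPM per kilobase on log axes, with metastases and primary tumours marked apart. In 11 of 14 metastases Crabp2 is the higher, against 1 of 6 primary tumours.

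Partner genes of each pathway were followed as lists, with edgeR calls counted beside the 7.34% higher and 6.44% lower over all genes. In the list of Wnt7 and Wnt receptor genes, which holds the ligands and receptor partners of Adgra2, 5 of 26 rose and 0 fell, with a median log2 difference of 0.47. Notum, a secreted Wnt deacylase, averaged 19.3 ± 27.6 CPM in metastases and 0.745 ± 0.872 CPM in primary tumours, a difference of 4.09 ± 0.82 (adjusted p = 0.0054) that passed in all 17 alternatives, where adjusted p lay between 5.315e-09 and 0.0496. Wnt7b had 2.01 ± 0.53 (adjusted p = 0.0202), Fzd6 2.00 ± 0.52 (0.0186) and Lrp5 1.21 ± 0.33 (0.0221), each higher in 6 of 6 sets, as was Notum. Wnt7a held 403 counts in the metastases and 1 count in the primary tumours, a ratio of 176.7 in CPM with an exact 95% interval of 31.5 to 6996. With the lung epithelial list as a covariate Wnt7a had a fitted log2 difference of 2.38 (adjusted p = 0.06), against 6.49 without it, values that depend on the prior count of the fit. Fzd6 had 2.53 (0.0704) and Lrp5 1.74 (0.0505) in that fit, both larger than without it but no longer past the threshold. Reck, the partner of Adgra2, had -0.77 and the receptor Fzd4 0.06, and neither passed. Without metastases 2-3 and 2-4, again 5 rose and 0 fell.

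Among 22 tested genes of retinoid transport, metabolism and receptors, 2 rose and 0 fell, with a median of 0.56: Crabp2 and Aldh1a1, an enzyme that makes retinoic acid. Aldh1a1 averaged 68.3 ± 111.6 CPM in metastases and 3.804 ± 2.62 CPM in primary tumours, a difference of 3.90 ± 0.90 (edgeR adjusted p = 0.0105, higher in 6 of 6 sets), and with the lung list as a covariate it had 1.84 (adjusted p = 0.394). With metastases 2-3 and 2-4 left out, 3 of the retinoid genes rose.

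In the list of the Rac cycle and ephrin signalling around Chn1, 1 of 32 rose and 3 fell, with a median of -0.04. Srgap1, another GTPase-activating protein, had 1.68 ± 0.40 (edgeR adjusted p = 0.0119), Srgap2 -0.57 ± 0.12 (0.00775), Dock1, an activator of Rac, -0.67 ± 0.17 (0.0146) and Arhgap35 -0.51 ± 0.15 (0.0331). Each kept its direction in 6 of 6 sets except Dock1, with 5 of 6. Without metastases 2-3 and 2-4, 3 rose and 3 fell. Of 17 tested caveolar genes 1 rose and 0 fell, with a median of -0.18, and the riser was Ror1 at 1.02 ± 0.22 (adjusted p = 0.00731), higher in 6 of 6 sets. Cav1 had -0.31 and Cav2 0.70, and neither passed. Of 15 flippase genes 0 rose and 1 fell, with a median of -0.16, and that gene, Atp8b5 at -1.79 ± 0.55 (adjusted p = 0.0414, lower in 4 of 6 sets), did not pass without metastases 2-3 and 2-4 (adjusted p = 0.0921).

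No gene was called by edgeR in the lists of 26 JmjC hydroxylases, 18 kinesin-1 transport genes or 20 genes of the lectin and early classical complement pathways, with medians of -0.01, -0.10 and -0.37. At an unadjusted p under 0.05 these lists held 1, 1 and 2 genes, beside 28.8% of all genes. DESeq2, which also tested genes that the edgeR filter left out, called 0, 1 and 1, beside 20.1% of all genes, and limma voom called 0 in each, beside 15.8%. With the muscle list as a covariate edgeR called 4, 2 and 3, beside 27.1%. In simulated counts with 50 genes changed at each fold, the edgeR contrast of metastases and primary tumours recovered 14% of 2-fold and 58% of 4-fold changes. Genes not called may therefore still differ. That simulation gave 70 calls, against 1354 higher and 1189 lower genes in the data. Its adjusted threshold was thus stricter, and recovery in the data may differ.

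Several calls in these lists did not pass when 1 set was left out, in fits that hold fewer samples, while every log2 difference kept its sign. Without set 2, Crabp2 had 1.75 (edgeR adjusted p = 0.0876), Wnt7b 1.69 (0.0823), Fzd6 2.08 (0.0772), Lrp5 1.15 (0.0944), Srgap2 -0.46 (0.0589), Dock1 -0.59 (0.108) and Arhgap35 -0.56 (0.073). Without set 1, Fzd6 had 2.30 (0.058), Lrp5 1.36 (0.0796), Srgap2 -0.59 (0.0654), Dock1 -0.80 (0.0519), Arhgap35 -0.55 (0.0956) and Ror1 0.96 (0.0766). Without set 6, Wnt7b had 1.90 (0.077), Lrp5 1.05 (0.09), Dock1 -0.50 (0.0791) and Arhgap35 -0.36 (0.18). Wnt7b without set 3 had 1.90 (0.0524), and Arhgap35 without set 4 had -0.41 (0.0934). Atp8b5 did not pass without set 1 (-2.01, adjusted p = 0.137), set 2 (-1.12, 0.364), set 3 (-1.34, 0.12) or set 5 (-1.83, 0.0626). With the lung epithelial list as a covariate Srgap1 had 1.52 (0.161), Ror1 1.19 (0.0603), Arhgap35 -0.33 (0.458) and Atp8b5 -2.58 (0.124), none of which passed, though Ror1 and Atp8b5 lay farther from 0 than without the covariate. Without the block for sets Lrp5 had 1.31 (adjusted p = 0.175).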

How the data were processed

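RNA of 20 mouse tumour tissues was sequenced after ribosomal depletion with a stranded kit, per the labels' protocols. Trimmomatic 0.36, STAR (given as version 5.5.4b), HTSeq and mm10 are named in the submitters' processing notes, with annotation release and strand setting not given in the sources used here. The authors deposited 1 table of raw read counts per gene, 51826 identifiers by 20 libraries, with 20603620 to 36824370 counts per library and no normalization. No library columns were identical, and the highest Pearson r of log2 CPM between 2 libraries was 0.9944. Metastases 6-1 and 6-2 were close to each other, with 9.48 and 9.44 CPM of Chn1, 9.42 and 9.38 CPM of Atp10a, and 37.5 and 41.3 CPM of Crabp1. They are counted as 2 metastases, and whether they are independent was not tested. Symbols were found for 51633 identifiers.

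From those counts, edgeR 4.0.16 in R 4.3.3 was used with filterByExpr (minimum count 10), TMM scaling and a robust quasi-likelihood test blocked on the set (18452 genes, 13 residual degrees of freedom). Adjusted p-values are Benjamini-Hochberg values over all genes tested, with a threshold of 0.05. Log2 CPM used a prior count of 2. The pairing is the one the labels give. Over 1000 variable genes, primary tumours and their own metastases deviated from their group means with an average correlation of 0.0684. In single sets it ran from -0.22 in set 5 and -0.18 in set 3 to 0.31 in set 1. These values show little sign of the pairing, which rests on the labels. Differences between sets were tested among 12 metastases with edgeR. DESeq2 1.42.0 and limma 3.58.1 served as alternatives. CPM per kilobase used merged exon lengths. Scripts were tested on simulated counts.

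The members and the gene lists were chosen with earlier results of these data known. Other genes were named by a rule: every tested paralogue, up to 3 called genes of smallest p in each direction per list, and the 3 genes most alike to each member. Wnt7b, Lrp5, Reck, Fzd4, Cav1 and Cav2 were chosen outside it, after their values were seen. Intervals cover counting error only.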

Additional observations from a re-analysis of the deposited data

Results flagged for a closer look

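Crabp1 in primary tumour 4 was the lowest of the 6 primary tumours, at 4.89 log2 CPM, and lay far from the others, of which the next lowest stood at 8.70 log2 CPM. It was the 1 value that stood apart among 24 groups of samples examined, and chance gives such a value in about 1 in 20 groups. Primary 4 also had the lowest Chn1, Adgra2, Fez1 and Masp1 of the 6 primary tumours, while its Riox2 was the highest in CPM. That rank of Riox2 rests on the scaling factor of primary 4, 0.712.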

How the results depend on the processing

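The log2 differences of the 8 genes kept their sign in all 17 alternatives, with the weakest values at -1.97 for Chn1, -1.31 for Riox2, -2.39 for Adgra2, -2.01 for Atp10a, -2.89 for Fez1, -2.37 for Crabp1, -1.39 for Masp1 and -2.11 for Cavin2. The value for Fez1 came without the block for matched sets. Counts over all genes moved more, and the cause was not tested. Without the replicate block, 1221 genes were higher and 1263 lower, of which 1062 and 893 were shared with the fit that keeps the block. Higher and lower genes numbered 2741 and 1980 with DESeq2, 297 and 63 with the metastases of a set summed (fewer samples), 307 and 108 with metastasis 1 of each set only (fewer samples), 733 and 544 with the lung epithelial list as a covariate, and 2854 and 2146 with the muscle list as a covariate. Without sets 4 and 6, 785 were higher. Leaving out 1 set gave 567 to 1643 higher and 407 to 1409 lower genes, and sets 1, 2 and 6 moved the counts by over 1.5 times (567, 682 and 772 higher, 432, 407 and 596 lower). The median log2 difference of all genes was 0.26 without the count filter and 0.20 with DESeq2, against 0.

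Between sets, 64 genes were called among metastases. The count was 164 with no filter, 4786 with DESeq2's likelihood ratio test, 511 with limma voom, 2011 with the lung epithelial list as a covariate and 3780 without metastases 2-3 and 2-4. Leaving out 1 metastasis gave 0 to 5602, with 5602 without 3-1, 1186 without 2-4, 271 without 1-1 and 230 without 2-3. In 7 of those 12 fits edgeR called 0 genes (without 1-2, 1-3, 1-4, 2-1, 2-2, 6-1 or 6-2), with 3938 to 5516 at an unadjusted p under 0.05. No paired analysis was possible between sets because each set gives its own metastases. Of 13 pathway genes called, Notum passed in every alternative run, and the other 12 lost their call in 1 to 11 of them. The single primary tumour of each set and the 1 metastasis of sets 4 and 5 limit precision, and the deposited depth limits Fez1 to 1 to 13 counts in 4 metastases.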
